A study of Homo sapiens with 12 samples.

Results

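The genes described here are ITGA11, the other collagen-binding integrin alpha chains ITGA1, ITGA2 and ITGA10, the alpha chains ITGA3 and ITGA5, the beta chain ITGB1 and the discoidin domain receptors DDR1 and DDR2. These 9 genes were taken by their symbols from 40591 lines of the deposited count table that carry a gene name, and each had 1 line. Of the 9, 7 passed a filter on low counts that kept 15179 genes in all, and ITGA2 and ITGA10 did not. Measured values entered the choice, because the set was chosen on the level of ITGA11, which was near absent in the GSTA4 group. For that reason ITGA11 is described without a test in every comparison, and no gene of the 9 is tested between GSTA4 and GFP.

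The libraries are poly(A) RNA-seq of ARPE-19, an established human cell line derived from retinal pigment epithelium (RPE). There are 4 groups of 3 libraries each. WT is ARPE-19 with no named open reading frame (ORF), GFP carries green fluorescent protein as a control ORF, GSTA4 carries glutathione S-transferase alpha 4, and OSK is read as the reprogramming factors OCT4 (POU5F1), SOX2 and KLF4. Per the series' design text the ORFs were expressed for 4 days in stable lines. The labels state neither the promoter that drives an ORF, nor the number of lines or clones per group, nor how WT was handled, so an ORF and its line cannot be told apart. Nothing states that the 3 libraries of a group came from separate cultures, so p-values measure the spread between these libraries, which may be technical.

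Integrins are cell-surface receptors made of 1 alpha and 1 beta chain. The chains encoded by ITGA1, ITGA2, ITGA10 and ITGA11 each carry an inserted (I) domain that binds collagen, and each pairs with the chain encoded by ITGB1. ITGA11 is known as a receptor for fibrillar collagen on fibroblasts and other mesenchymal cells, and ITGA1 is known for binding the network collagen of basement membranes. DDR1 and DDR2 are receptor tyrosine kinases that bind collagen without being integrins. ITGA3 and ITGA5 also pair with ITGB1, but their chief ligands are laminins and fibronectin, so the name collagen receptor fits 6 of the 9 genes directly, with ITGB1 as the shared partner. The RPE rests on a basement membrane that holds collagens and laminins.

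Total counts ran from 12630675 to 17045454 reads per library, and a floor of 3 reads corresponds to 0.177 to 0.228 CPM, the reads of a gene scaled to a common library size. The ORF genes went with their labels: GSTA4 had 416 CPM ± 17.6 (SD, n = 3) in its group and means of at most 20.2 elsewhere, and POU5F1, SOX2 and KLF4 had means of at least 628 in OSK and at most 1.57 elsewhere. GFP replicate 1 stood apart, since 27349 named genes had at least 1 read there, while the range elsewhere was 19488 to 22073. The counts of WT replicate 1 differed from those of WT replicates 2 and 3 by a chi-square per degree of freedom of 14.2 and 16.7, where the other pairs of replicates ranged from 2.50 to 6.78. Of 11 RPE markers, 9 averaged at least 1 CPM in WT and in GFP, and 8 in GSTA4 and in OSK. RPE65, the visual cycle enzyme that defines mature RPE, had group means from 0.0229 to 0.495 CPM, and the pigment enzyme DCT had at most 0.192. The summed RPE list lay at 2357 to 2612 CPM in WT, 2066 to 2346 in GFP, 1433 to 1467 in GSTA4 and 1294 to 1380 in OSK. The keratins KRT8 and KRT18 carry much of that sum and set WT above GFP, with KRT8 at 1247 CPM in WT and 843 in GFP. Of the 9 RPE markers that passed the filter, 6 were higher in GFP than in WT at an edgeR adjusted p under 0.05. The 2 keratins were lower, and the pigment enzyme TYR was among the 6 higher, at 66.0 against 21.2 CPM. Of all tested genes, 22.2% were past that threshold. In GSTA4 against GFP, 0 of the 9 were higher and 8 lower, where the share of all tested genes was 29.2%. In OSK against GFP, 0 were higher and 9 lower, where it was 45.9%. The part of these markers in the results was not tested.

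ITGA11 was read in WT, GFP and OSK and was close to absent in GSTA4. The gene lies on chromosome 15, minus strand, at 68296532 to 68432163 in GRCh38.p14. Its levels were 153, 225 and 214 CPM in WT replicates 1 to 3 and 129.8, 120.2 and 148 CPM in the GFP replicates. The OSK libraries had 87.0, 55.5 and 64.7 CPM. The GSTA4 libraries had 1, 0 and 4 reads, or 0.0635, 0 and 0.275 CPM, where 3 reads correspond to 0.191, 0.225 and 0.206 CPM. The order of the levels was therefore WT, GFP, OSK and GSTA4, and no libraries of neighbouring groups in that order overlapped. WT and GFP lay closest, with 153 CPM in the lowest WT library against 148 in the highest GFP library.

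Summed over libraries, ITGA11 had 9139 reads in WT, 5570 in GFP, 3018 in OSK and 5 in GSTA4. Scaled to library size, GFP was 1161-fold above GSTA4, with a counting interval (95%, exact) from 497 to 3578. WT was 1708-fold above GSTA4 (732 to 5263) and OSK was 597-fold above it (256 to 1841). The width of these intervals comes from the 5 reads in GSTA4, of which replicate 3 held 4. The ratio of OSK to GFP was 0.514 (0.492 to 0.538), that of GFP to WT 0.680 (0.657 to 0.703), and that of OSK to WT 0.350 (0.335 to 0.364). These intervals cover counting error only. The SD between libraries was larger, at 38.7 around a mean of 197 CPM in WT, 14.4 around 133 in GFP and 16.2 around 69.0 in OSK. Fewer cells with the transcript and less transcript per cell cannot be told apart in these bulk libraries.

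**Figure D1:**
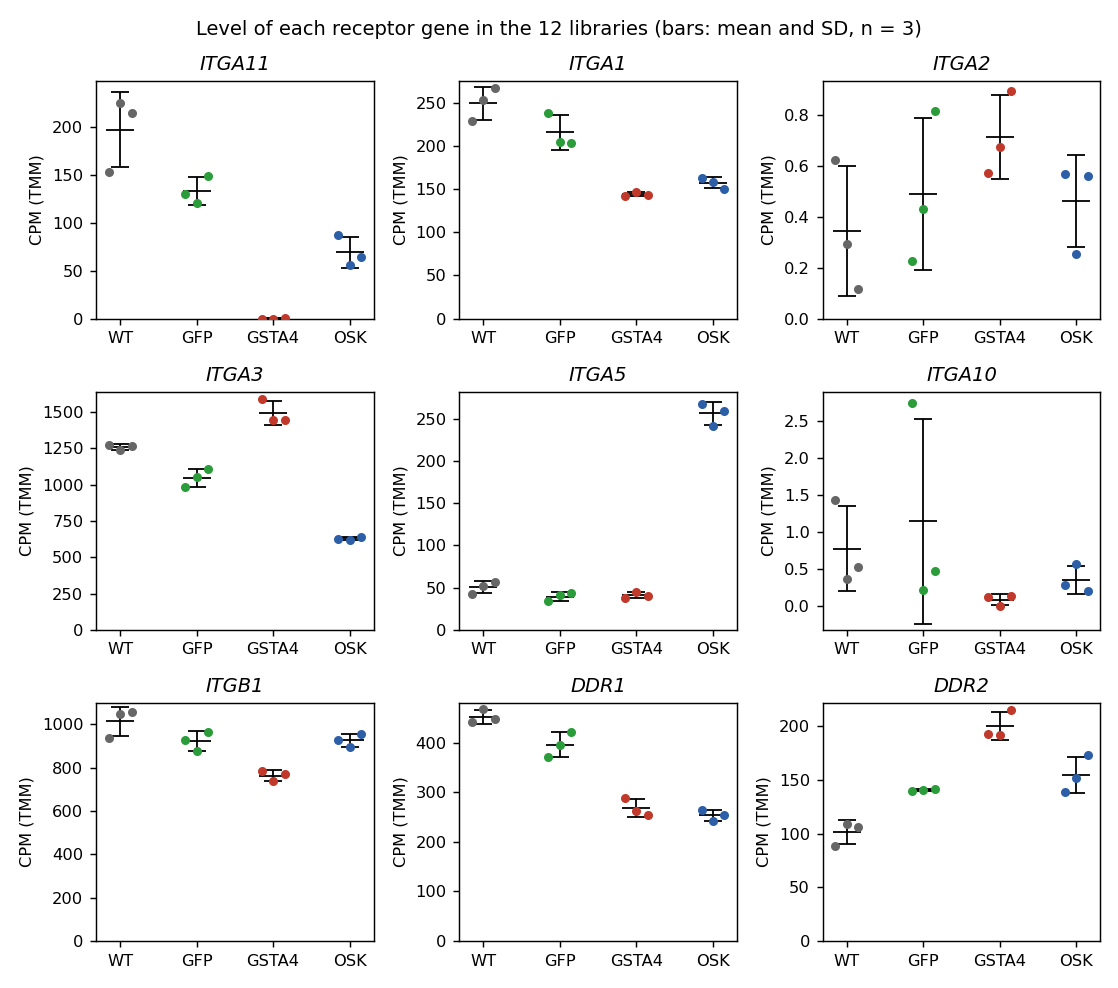
CPM after TMM scaling (linear axes, 1 panel per gene) in WT, GFP, GSTA4 and OSK, with a point for each library and bars for the mean and SD (n = 3). ITGA11 lies at 0.275 CPM or less in GSTA4 and at 55.5 or more elsewhere, and ITGA5 lies at 241 CPM or more in OSK and at 56.5 or less elsewhere.

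The 250 bases upstream of the annotated start are shown for ITGA11 and for ITGA5, the genes of the 9 with the largest differences between groups (RefSeq, GRCh38.p14, minus strand, written 5′ to 3′ of the gene). Capitals mark every match, on either strand, to 5 short motifs: CAGAC (a SMAD core), GGGCGG (an SP core), CACCC (a KLF core), TATAAA (the TATA box) and CANNTG (the E-box). The E-box was added after the sequences had been seen.
ITGA11, chr15:68432164-68432413: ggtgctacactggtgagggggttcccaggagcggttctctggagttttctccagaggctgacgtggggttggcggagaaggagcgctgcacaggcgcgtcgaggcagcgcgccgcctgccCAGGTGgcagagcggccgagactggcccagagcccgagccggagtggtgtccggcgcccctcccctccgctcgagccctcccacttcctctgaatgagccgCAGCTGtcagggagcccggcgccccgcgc
ITGA5, chr12:54419267-54419516: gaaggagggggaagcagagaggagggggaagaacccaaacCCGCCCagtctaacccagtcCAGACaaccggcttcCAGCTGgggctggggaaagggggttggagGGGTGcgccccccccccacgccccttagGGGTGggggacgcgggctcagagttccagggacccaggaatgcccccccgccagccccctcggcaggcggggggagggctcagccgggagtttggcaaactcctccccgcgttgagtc
The ITGA11 stretch has a GC content of 71.2% and holds 2 E-box matches and no other match. The ITGA5 stretch has a GC content of 70.0% and holds 1 CAGAC, 1 GGGCGG, 2 CACCC and 1 E-box match. Among 35116 promoters of the same length, 38.0% hold CAGAC, 42.6% GGGCGG, 54.7% CACCC, 10.7% TATAAA and 61.8% CANNTG. A match is a description of letters and not of a bound site.

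The genes around ITGA11 did not share its near absence. Within 1 Mb the reference lists 17 protein-coding genes, of which 15 were in the table and 14 passed the filter. In GSTA4 against GFP, 3 of the 14 were past the threshold of an adjusted p of 0.05 (edgeR, Benjamini-Hochberg over all tested genes), all lower, where 29.2% of all tested genes were past it. The nearest, FEM1B, a substrate receptor of a ubiquitin ligase that lies 0.7 kb away, fell from 75.1 CPM ± 7.51 in GFP to 54.6 ± 3.06 in GSTA4, or by 0.46 on the log2 scale (SE 0.0744, edgeR adjusted p 7.93e-05). KIF23, a kinesin of cell division, and GLCE, an enzyme of heparan sulfate synthesis, fell by 0.42 and 0.43 on the log2 scale (edgeR adjusted p 0.00759 and 0.0255). CORO2B, 86.2 kb away on the other side, had 2.07 CPM in GFP and 1.23 in GSTA4 and did not pass the test (adjusted p 0.0641). In OSK against GFP, 4 of the 14 were higher and 2 lower, where 45.9% of all tested genes were past the threshold. CORO2B rose by 4.35 (SE 0.193, edgeR adjusted p 1.98e-13) and PAQR5 by 3.38, while IQCH fell by 1.32 and MAP2K5 by 0.34. In GSTA4 against WT, 3 of the 14 were higher and 4 lower, where the share of all tested genes was 38.6%. CORO2B, at 6.39 CPM in WT, was lower there by 2.38 (SE 0.244, edgeR adjusted p 1.61e-07), and PAQR5 by 1.03, while KIF23 was higher by 1.35.

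**Figure D2:**
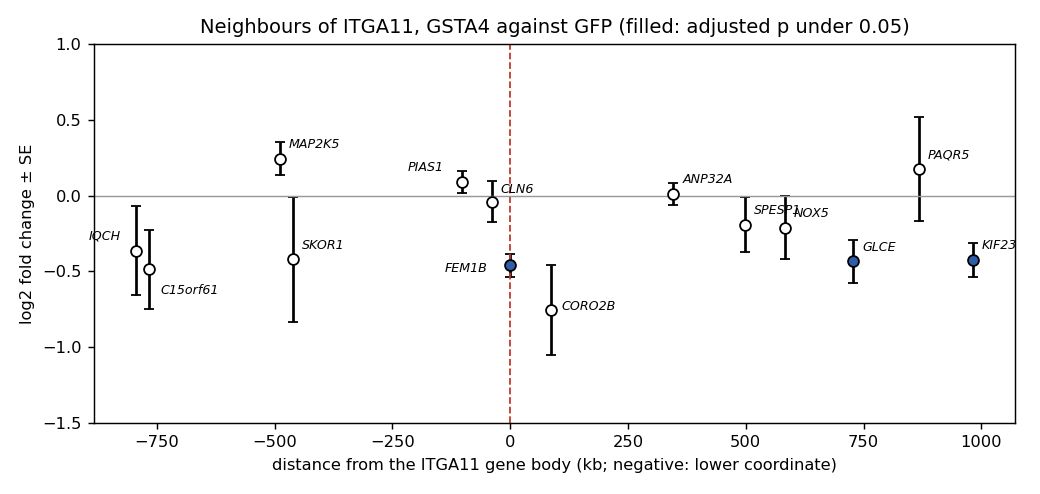
Log2 fold change in GSTA4 against GFP (vertical, bars of 1 SE) of the tested protein-coding genes within 1 Mb of ITGA11, against their distance from the gene in kb (dashed line at 0), with filled points past the threshold. The neighbours lie between -0.75 and 0.24, and the filled points are FEM1B, GLCE and KIF23.

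The genes whose levels followed ITGA11 most closely were found by Pearson's r of log2 CPM over the 12 libraries, among 13689 tested genes with a mean of at least 1 CPM. They were LPCAT2 (r = 0.992), a phospholipid acyltransferase, AMTN (0.985), an enamel matrix protein, MEGF9 (0.983), ST3GAL1 (0.983), a sialyltransferase, and BMP6 (0.983), a bone morphogenetic protein. The libraries share their groups, so r mostly describes the low GSTA4 level. LPCAT2 had 99.4 CPM in WT, 90.3 in GFP, 75.6 in OSK and 32.5 in GSTA4. AMTN had 177 CPM ± 95.9 in WT, 118 ± 14.3 in GFP, 57.0 ± 3.66 in OSK and 1.35 ± 0.112 in GSTA4. ST3GAL1 differed little among the other groups, at 53.7 to 57.0 CPM, and had 15.9 in GSTA4. Among the other receptors, r with ITGA11 over the 12 libraries was 0.913 for ITGB1, 0.744 for ITGA1, 0.603 for DDR1, 0.257 for ITGA5, -0.503 for ITGA3 and -0.788 for DDR2. Over the 9 libraries without GSTA4 the values were 0.687, 0.942, 0.958, -0.801, 0.934 and -0.751. For ITGA3 and ITGA5 the sign thus depends on the GSTA4 libraries.

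ITGA1, on chromosome 5 at 52787916 to 52959209, was the other I-domain chain with a substantial level. It had 229, 253 and 267 CPM in WT and 239, 204 and 204 in GFP. It had 142, 147 and 144 CPM in GSTA4 and 163, 158 and 150.4 in OSK. WT and GFP overlapped, and both lay above OSK and GSTA4. ITGA1 fell by 0.45 on the log2 scale in OSK against GFP (edgeR adjusted p 1.79e-05) and by 0.79 in GSTA4 against WT (edgeR adjusted p 1.78e-08). The fitted log2 fold change between GSTA4 and GFP was -0.58 (SE 0.0697), without a test. OSK and GSTA4 did not overlap, yet their difference of 0.13 did not pass the test (adjusted p 0.146, 95% interval -0.0191 to 0.273), and it did (0.0334) when only those 6 libraries were fitted. In GFP against WT it was lower by 0.21 (edgeR adjusted p 0.0327). That call was lost without WT replicate 2 or 3 or GFP replicate 2 or 3 (adjusted p 0.0753 to 0.147), with only the 6 libraries compared (0.115) and when scaled by library size only (0.0505). PELO, a gene on the same strand, lies inside ITGA1, and antisense genes overlap it. How the counting treated such reads is not given in the sources used here.

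ITGA2 and ITGA10 were near the floor. ITGA2 had at most 0.894 CPM in any library. ITGA10 had 36 reads, or 2.74 CPM, in GFP replicate 1, and in GSTA4 it had 2, 0 and 2 reads. GFP replicate 1 is the library with reads on the most genes. No fold is given for either gene, because the levels are too low for one.

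Per kilobase of exon (GENCODE release 29, not the annotation used for counting), ITGA11 made up 56.8% ± 3.77 (SD, n = 3) of the 4 I-domain chains in WT, 50.8% ± 3.94 in GFP and 42.2% ± 5.12 in OSK. In GSTA4 it made up 0.132% ± 0.168. ITGA1 made up 98.5% ± 0.506 there, against 42.6% ± 3.30 in WT, 48.3% ± 3.54 in GFP and 57.1% ± 5.02 in OSK. Summed over the 4 chains the level was 31.7 CPM per kb ± 4.38 in WT, 24.1 ± 1.68 in GFP, 14.9 ± 1.72 in OSK and 7.88 ± 0.113 in GSTA4. In GSTA4 ITGA1 was therefore nearly the whole of these chains, at a lower level than in GFP and WT. The share follows from the ITGA11 values that chose the genes and has no test.

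**Figure D3:**
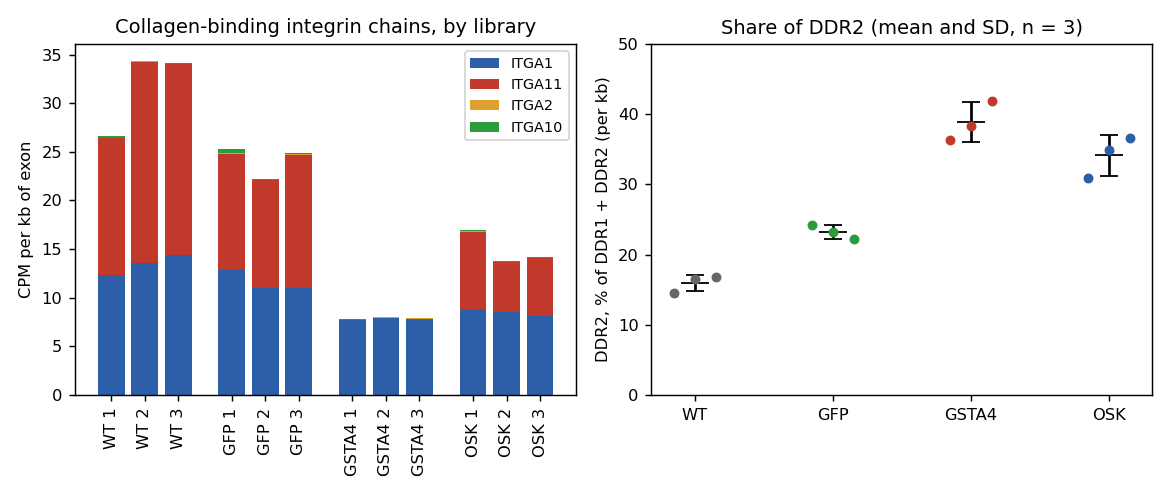
Left, CPM per kb of exon of the 4 I-domain chains stacked in each of the 12 libraries; right, DDR2 as a percentage of DDR1 plus DDR2 per kb, with points for libraries and bars for the mean and SD (n = 3). The ITGA11 part is not visible in the GSTA4 bars, and the DDR2 share runs from a mean of 15.9% in WT to 38.8% in GSTA4.

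ITGB1, the shared partner, on chromosome 10 at 32900318 to 32958230, varied little. It had 938, 1045 and 1058 CPM in WT, 927, 877 and 966 in GFP, 784, 738 and 769 in GSTA4 and 927, 894 and 956 in OSK. The GSTA4 libraries lay below all others. ITGB1 was lower by 0.41 on the log2 scale in GSTA4 against WT (edgeR adjusted p 2.49e-05) and higher by 0.28 in OSK against GSTA4 (edgeR adjusted p 0.000887). The fitted log2 fold change between GSTA4 and GFP was -0.27 (SE 0.0621), without a test. OSK differed from GFP by 0.00 (adjusted p 0.968, 95% interval -0.126 to 0.133). GFP against WT (-0.13, adjusted p 0.128) and OSK against WT (-0.13, adjusted p 0.0914) did not pass either, but both did without WT replicate 1 (edgeR adjusted p 0.0240 and 0.0119), and OSK against WT also when scaled by library size only (0.00569). The sum of the 6 alpha chains per kilobase over ITGB1 per kilobase was 1.3 ± 0.0439 in GSTA4, 0.991 ± 0.0439 in WT, 0.887 ± 0.0421 in GFP and 0.735 ± 0.0194 in OSK (SD, n = 3). It includes ITGA3, the most abundant of these chains.

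ITGA3, on chromosome 17 at 50056110 to 50090481, moved in opposite directions in GSTA4 and OSK. Its levels were 1276, 1236 and 1265 CPM in WT and 982, 1055 and 1105 in GFP. They were 1589, 1445 and 1446 CPM in GSTA4 and 629, 621 and 643 in OSK. No groups overlapped, and the order was GSTA4, WT, GFP and OSK. ITGA3 fell by 0.73 in OSK against GFP (edgeR adjusted p 3.91e-09), by 1.24 in OSK against GSTA4 (edgeR adjusted p 7.42e-13) and by 0.27 in GFP against WT (edgeR adjusted p 0.00368). It rose by 0.25 in GSTA4 against WT (edgeR adjusted p 0.00284). The fitted log2 fold change between GSTA4 and GFP was 0.51 (SE 0.0606), without a test.

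ITGA5, on chromosome 12 at 54395261 to 54419266, set OSK apart. It had 42.8, 52.0 and 56.5 CPM in WT, 34.1, 40.6 and 43.4 in GFP, 38.1, 44.7 and 39.4 in GSTA4 and 268, 241 and 259 in OSK. The first 3 groups overlapped and the OSK libraries lay far above them. The log2 fold change in OSK was 2.7 against GFP (SE 0.0967, edgeR adjusted p 6.39e-15), 2.65 against GSTA4 (edgeR adjusted p 4.58e-15) and 2.34 against WT (edgeR adjusted p 3.30e-14). Against GFP, GSTA4 differed by 0.04 (SE 0.101), without a test, and this value was below 0 without GFP replicate 1 (-0.05) or GSTA4 replicate 2 (-0.02). ITGA5 was lower by 0.35 in GFP against WT (edgeR adjusted p 0.0138) and by 0.31 in GSTA4 against WT (edgeR adjusted p 0.0163), in groups that overlap. The former was lost without WT replicate 3 (0.0763) or GFP replicate 1 (0.0764). The latter was lost without WT replicate 2 or 3 or GSTA4 replicate 1 or 3 (0.0508 to 0.111). Antisense genes overlap ITGA5.

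DDR1, on chromosome 6 at 30880970 to 30900156, had its lowest levels in GSTA4 and OSK. It had 441, 468 and 449 CPM in WT, 371, 395 and 421 in GFP, 288, 263 and 253 in GSTA4 and 265, 242 and 254 in OSK. WT lay above GFP, and GFP above GSTA4 and OSK, which overlapped. DDR1 fell by 0.64 in OSK against GFP (edgeR adjusted p 5.80e-08) and by 0.76 in GSTA4 against WT (edgeR adjusted p 1.07e-08). Its fitted log2 fold change in GSTA4 against GFP was -0.56 (SE 0.0641), without a test. OSK and GSTA4 differed by -0.08 (adjusted p 0.331, 95% interval -0.213 to 0.0547), or past the threshold with library size alone (0.0489). GFP against WT was lower by 0.19 (edgeR adjusted p 0.0347), a call lost without WT replicate 2 or 3 or GFP replicate 1 or 2 (adjusted p 0.0576 to 0.118) and with only the 6 libraries compared (0.0882).

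DDR2, on chromosome 1 at 162630863 to 162787405, went the other way. It had 88.3, 109 and 106 CPM in WT, 140.0, 140.4 and 142 in GFP, 193, 192 and 215 in GSTA4 and 139, 152 and 173 in OSK. WT lay below every other library, and GSTA4 above every other library. DDR2 was higher by 0.48 in GFP against WT (edgeR adjusted p 0.000325), by 0.98 in GSTA4 against WT (edgeR adjusted p 7.49e-09) and by 0.61 in OSK against WT (edgeR adjusted p 2.79e-06). It was lower by 0.37 in OSK against GSTA4 (edgeR adjusted p 0.000646). OSK and GFP overlapped and did not pass the test (0.14, adjusted p 0.175), although they did without OSK replicate 1 (edgeR adjusted p 0.0477). The fitted log2 fold change between GSTA4 and GFP was 0.51 (SE 0.0804), without a test. Per kilobase, DDR2 made up 15.9% ± 1.21 of the discoidin domain receptor level in WT, 23.2% ± 1.01 in GFP, 34.1% ± 2.93 in OSK and 38.8% ± 2.87 in GSTA4 (SD, n = 3).

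Counted over the 6 tested receptors, that is all but ITGA11 and the 2 below the filter, 4 passed the test between OSK and GFP, 1 higher and 3 lower, where 45.9% of all tested genes were past it. In OSK against GSTA4 the count was 4, 2 higher and 2 lower, with 47.8% of all tested genes. In GSTA4 against WT it was 6, 2 higher and 4 lower, with 38.6%. In OSK against WT it was 5, 2 higher and 3 lower, with 45.4%. In GFP against WT it was 5, 1 higher and 4 lower, with 22.2%. That last count was 2 without WT replicate 3, 3 without WT replicate 2, GFP replicate 1 or GFP replicate 2, and 6 without WT replicate 1. In GSTA4 against GFP, 6 of the 7 receptors that passed the filter did not overlap between the groups, where 42.3% of all tested genes did not, and nothing is read from that count since the contrast was used in the choice. Comparisons that share the libraries of a group, whichever group it is, are not independent.

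**Figure D4:**
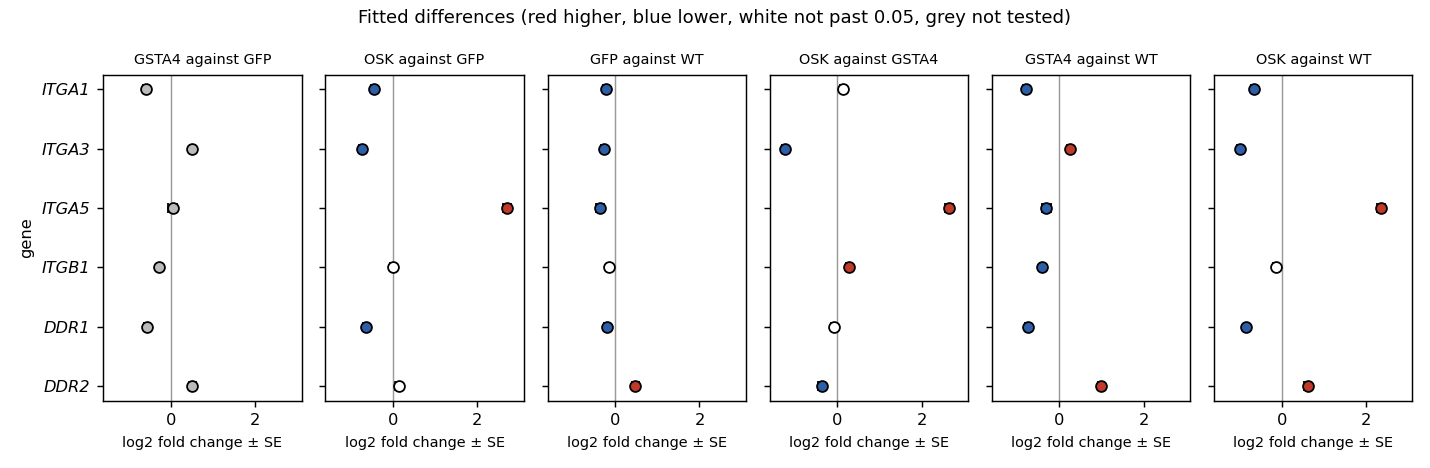
Log2 fold change with bars of 1 SE of the 6 receptors other than ITGA11 that passed the filter, 1 panel per comparison, coloured red (higher), blue (lower), white (not past the threshold) or grey (not tested, GSTA4 against GFP). ITGA5 lies at 2.34 to 2.7 in the comparisons of OSK with the other groups, and ITGA3 lies at -1.24 in OSK against GSTA4.

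The other integrin chains gave a mixed picture, and lists were described by counts and medians. Of 19 other integrin genes, 11 passed the filter. In GSTA4 against GFP, 1 rose and 6 fell, with a median of -0.46 where that of all tested genes was 0.01 and 29.2% of them were past the threshold. ITGA7, a laminin receptor chain, rose by 0.72 (SE 0.0683, edgeR adjusted p 7.50e-08). ITGB5 and ITGAV, whose chains form a vitronectin receptor, fell by 1.08 and 0.64. In OSK against GFP, where 45.9% of all tested genes were past the threshold, 3 rose and 2 fell (8 in all with no filter on low counts), with ITGA7 up by 1.07 and ITGA6, another laminin receptor chain, by 0.80, and with ITGA4 and ITGB4 down by 1.17 and 1.16. In GFP against WT, where 22.2% of all tested genes were past the threshold, 1 rose, ITGA6 at 0.63, and 2 fell, ITGB3 and ITGB5. That last count of 3 ran from 1 to 5 over the alternatives and moved by more than 1.5 times with no filter, with only the 6 libraries compared and without GFP replicate 2. In OSK against GSTA4, where the share of all tested genes was 47.8%, 6 were higher and 2 lower, with ITGA6 at 1.41 and ITGB5 at 1.23.

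Tetraspanins are membrane proteins that associate with laminin-binding integrins. All 6 listed were tested. In OSK against GFP, 5 rose and 1 did not pass, where 45.9% of all tested genes were past the threshold. CD82 rose by 1.47 (SE 0.112, edgeR adjusted p 9.84e-10) and TSPAN4 by 1.44 (SE 0.0844, edgeR adjusted p 1.75e-11), and the median of the 6 was 1.10. Between GSTA4 and GFP, 1 rose and 2 fell, where 29.2% of all tested genes were past the threshold. CD82 rose by 1.3 there, while CD151 and CD9 fell by 0.50 and 0.55. CD82 had 14.6 CPM ± 1.42 in GFP, 35.9 ± 3.59 in GSTA4 and 40.3 ± 3.63 in OSK. Of 8 other collagen receptors, 2 were tested. MRC2, an endocytic collagen receptor, rose by 0.72 in GSTA4 and by 0.77 in OSK against GFP. ADGRG1, an adhesion G protein-coupled receptor that binds collagen, fell by 3.70 in GSTA4 (SE 0.406, edgeR adjusted p 5.50e-07), from 9.96 CPM ± 2.20 to 0.762 ± 0.196. The rise of MRC2 in GSTA4 was lost without GFP replicate 2.

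**Figure D5:**
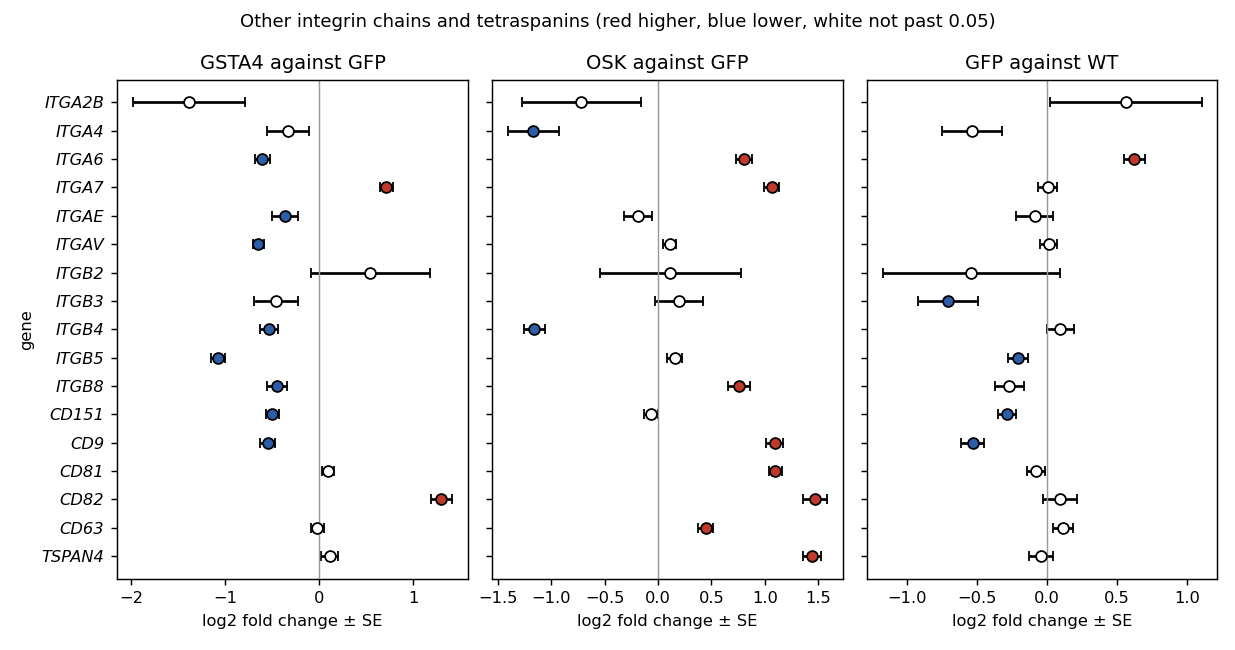
Log2 fold change with bars of 1 SE of the tested other integrin chains and tetraspanins in GSTA4 against GFP, OSK against GFP and GFP against WT, coloured red (higher), blue (lower) or white (not past the threshold). CD82 lies at 1.3 in GSTA4 and 1.47 in OSK against GFP, and ITGB5 at -1.08 in GSTA4.

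Among 31 genes of the adhesion machinery, which link integrin tails to actin and to signalling, 29 were tested. In GSTA4 against GFP, 4 rose and 8 fell (median -0.07), where 29.2% of all tested genes were past the threshold. PXN (paxillin) rose by 0.47, and TNS1 (tensin 1) and NEDD9 fell by 1.12 and 1.05. In OSK against GFP, 7 rose and 9 fell (median -0.02), where the share of all tested genes was 45.9%. FERMT2 (kindlin 2), which binds beta chain tails, rose by 0.85, NEDD9 rose by 0.60, and TNS1 and PARVB fell by 1.23 and 0.86. In GFP against WT, 2 rose and 1 fell, where the share of all tested genes was 22.2%. That count of 3 reached 9 over the alternatives, moving by more than 1.5 times without WT replicate 1 and with no filter. Of 3 integrin inhibitors, all tested, 2 rose and 0 fell in GSTA4 against GFP, beside 29.2% of all tested genes. In OSK against GFP, 2 rose and 1 fell, beside 45.9%. SHARPIN, which binds alpha chain tails, rose by 0.28 and by 0.29. The count in GSTA4 against GFP ran from 0 to 2 over the alternatives, and it was under 2 without any 1 of the GFP libraries and without GSTA4 replicate 2 or 3. It was also under 2 when scaled by library size only, with the filter set to a mean of 1 CPM, and with DESeq2.

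Of 11 fibrillar collagen chains, 6 were tested, and 1 rose and 2 fell in GSTA4 against GFP. In that comparison 29.2% of all tested genes were past the threshold. COL1A1, a chain of type I collagen, had 123 CPM ± 27.3 in WT, 82.6 ± 2.13 in GFP, 20.9 ± 4.52 in OSK and 4.53 ± 1.87 in GSTA4, the same order as ITGA11. COL1A2 averaged at most 0.261 CPM in any group. The most abundant fibrillar chain was COL11A1, with 710 CPM in WT, 474 in GFP, 456 in OSK and 433 in GSTA4. In GSTA4 against GFP, COL11A1 did not pass the test (edgeR adjusted p 0.143). Between OSK and GFP, COL1A1 fell by 1.98 on the log2 scale (SE 0.165, edgeR adjusted p 3.87e-09). COL5A1 fell by 1.37 in GSTA4 and rose by 1.24 in OSK against GFP, and COL5A2 rose by 0.72 and by 1.88. Of 9 network and beaded collagen chains, 7 were tested. Between GSTA4 and GFP, 2 rose and 4 fell beside that share of 29.2%, with COL4A3 at -2.20 and COL4A4 at -1.64. In OSK against GFP, 4 rose and 3 fell, where 45.9% of all tested genes were past the threshold. COL4A3 was at 2.61 (SE 0.0617, edgeR adjusted p 7.32e-18) and COL4A1 at -1.32. COL4A1 had 279 CPM ± 93.9 in WT, 756 ± 141 in GFP and 304 ± 26.4 in OSK. It was higher by 1.44 in GFP against WT (edgeR adjusted p 5.62e-06). COL4A3 had 107 CPM ± 1.22 in GFP, 23.3 ± 1.76 in GSTA4 and 657 ± 8.74 in OSK.

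The ligands of ITGA3 and ITGA5 were fibronectin and 7 laminin chains, all tested. FN1, the fibronectin gene and ligand of ITGA5, had 264 CPM ± 21.2 in GFP and 175 ± 13.5 in OSK, a fall of 0.60 on the log2 scale (edgeR adjusted p 0.000579), while ITGA5 rose. LAMB2 rose by 1.24 (SE 0.0647, edgeR adjusted p 2.49e-12) and LAMC1 by 0.54 in OSK against GFP, and LAMA3 was lower by 0.57. For LAMA3 the GFP group was the high one, at 791 CPM, with 562 in WT, 531 in OSK and 515 in GSTA4. LAMA3 was higher by 0.49 in GFP against WT (edgeR adjusted p 8.17e-05). Between GSTA4 and GFP, 1 of the 8 rose (LAMC1 at 0.27) and 1 fell (LAMA3, which fell by 0.62), where 29.2% of all tested genes were past the threshold. That count of 2 was 4 when only the 6 libraries compared were fitted.

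Markers of other cell types moved with some of these groups, and their part in the results was not tested. The 8 fibroblast and mesenchymal markers summed to 639 to 709 CPM in WT, 636 to 704 in GFP, 532 to 556 in GSTA4 and 325 to 375 in OSK. PDGFRB, the mural cell receptor, made up nearly all of it, with 651 CPM in WT and 343 in OSK. FAP means followed the order of ITGA11: WT (10.18 CPM), GFP (6.29), OSK (2.38) and GSTA4 (1.95). FAP fell by 1.67 on the log2 scale in GSTA4 against GFP (edgeR adjusted p 4.44e-05), but OSK and GSTA4 did not differ past the threshold (adjusted p 0.468). FBLN1 was lowest in OSK, at 0.972 CPM, and did not pass the test between GSTA4 and GFP (adjusted p 0.921). LUM, a defining fibroblast gene, had 0 reads in every group. The epithelial list summed to 11.97 to 20.4 CPM in GFP, 2.24 to 5.31 in WT and at most 1.13 in GSTA4 and OSK. Nearly all of the sum in GFP and WT came from CDH1, with means of 16.04 and 3.26 CPM. The other genes of that list, EPCAM, KRT5, KRT14 and ESRP1, averaged at most 0.302 CPM in any group. The leukocyte list summed to 15.1 to 18.9 CPM in GFP, 9.88 to 13.7 in OSK, 3.23 to 11.4 in WT and 0.450 to 0.826 in GSTA4. CSF1R, a macrophage growth factor receptor, is its 1 gene that passed the filter and fell from 17 CPM ± 2.63 in GFP to 0.459 ± 0.0198 in GSTA4, with a fitted log2 difference of -5.19 (SE 0.421, edgeR adjusted p 6.63e-09). PTPRC and CD3E, which define leukocytes and T cells, had 0 reads in GSTA4 and OSK. The endothelial list summed to at most 5.17 CPM.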

How the data were processed

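Poly(A) RNA of ARPE-19 cells was measured in 12 libraries, 3 in each of 4 groups. The authors deposited unnormalised read counts, 1 line per gene. Per the submitters' processing notes, STAR 2.7.1a and featureCounts 1.6.2 were used, and the builds GRCh38 (hg38) and GRCm38 (mm10) are named. The annotation release and the strand setting are not given in the sources used here. Of 60605 lines, 20014 without a symbol (0.485% to 0.822% of reads) were left out of library sizes and tests.

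The quasi-likelihood test of edgeR 4.0.16 (with limma 3.58.1, in R 4.3.3) was applied to the counts, scaled by TMM and filtered by filterByExpr with the groups. The model held 1 mean for each group, had no covariate and left 8 residual degrees of freedom over the 12 libraries. Two-sided p-values were adjusted over all tested genes of a contrast (Benjamini-Hochberg), and the threshold was 0.05. A standard error is the log2 fold change divided by the square root of its F, and values are CPM after TMM scaling. The ratios of ITGA11 use summed counts over effective library sizes with an exact conditional interval. Levels per kilobase used exon lengths of GENCODE release 29. The script was tested on simulated counts.

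The genes and lists were chosen with earlier results of these data known. The genes named from a list are, per contrast, up to 2 higher and 2 lower genes past the threshold with the largest change and a mean of at least 1 CPM. Also named are the 5 genes most like ITGA11, its neighbours within 1 Mb and the ORF genes. As alternatives, DESeq2 1.42.0 was run, scaling was by RLE or by library size only, the filter was dropped or set to a mean of 1 CPM, the replicate number entered as a block, the fit was limited to the 6 libraries compared, and each library was left out in turn.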

Additional observations from a re-analysis of the deposited data

How the results depend on the processing

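No fold change past the threshold changed its sign under an alternative. Over the receptors that passed the filter and their alternatives, 390 fold changes have a test, of which 367 kept their side of the threshold, 17 lost it and 6 gained it. Another 156 have no test, and of these 3 values of ITGA11 moved by more than the spread between libraries. The sign changed in 5 alternatives for ITGB1 in OSK against GFP (-0.07 to 0.04) and in 2 for ITGA5 in GSTA4 against GFP (-0.05 to 0.11), both near 0. The cause was not tested. The count of receptors past the threshold in GFP against WT was 5, and 3 when only the 6 libraries compared were fitted. With 1 library left out it ran from 2 to 6. Without GSTA4 replicate 3, which held 4 of the 5 ITGA11 reads in that group, the ITGA11 ratios between GSTA4 and the other groups lay furthest from 1. With 1 library left out the ratio of GSTA4 to GFP ran from 0.000258 to 0.00124, that of GSTA4 to WT from 0.000176 to 0.000843, and that of OSK to GSTA4 from 415 to 1990. With the replicate number as a block the counts of receptors past the threshold were 4 in OSK against GFP, 5 in GFP against WT, 4 in OSK against GSTA4, 6 in GSTA4 against WT and 5 in OSK against WT, as without it. The labels do not say that a number marks a shared culture or day. Correlations of same-numbered libraries' deviations ran from -0.0193 to 0.153. The highest, 0.153, 0.120 and 0.106, were those of WT replicate 1 with replicate 1 of GFP, GSTA4 and OSK. Of 12 libraries, 6 correlated best with their own number, out of 3 possible numbers. Below about 0.2 CPM, or 3 reads, levels of ITGA2, ITGA10 and of ITGA11 in GSTA4 are limited by depth.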
